A study of Mus musculus with 3 samples.

Results

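Genes whose symbols name eukaryotic translation initiation factors were followed in the mouse heart tube at embryonic day 9.5. The members are the symbols that begin with Eif and a digit and that had 10 or more reads in at least 1 library, the Y-linked Eif2s3y left out. Of 58 such symbols among 23337 in the files, 55 were members, and all 55 passed the filter on low counts. Both symbols besides Eif2s3y that were left out, Eif3j and Eif4e1b, had 0 reads in each library. Reads that did not align uniquely were not counted, so 0 reads need not mean that a gene is silent. The set holds 51 initiation factors, their regulators and relatives, and 4 Argonaute genes of small RNA silencing that the files list under the older symbols Eif2c1 to Eif2c4. There were 2 libraries of Sox7-null tubes, labelled SOX7 (-/-), and a single library of wild-type tubes. Sox7 is a transcription factor gene of the SoxF family. The labels give neither the null allele and strain nor whether a tube came from 1 embryo or a pool, so p-values measure only the spread between these libraries, which may be technical. With 1 wild-type library, that library is assumed to vary like the null libraries.

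Initiation brings the ribosome and the initiator tRNA to the start codon of a messenger RNA. The factor eIF2 carries the initiator tRNA in its GTP form, and eIF2B recharges it. When one of the eIF2 kinases phosphorylates the alpha subunit of eIF2, eIF2 blocks eIF2B, general initiation slows, and a few messages such as that of the transcription factor Atf4 are translated better. At the other end of the pathway eIF4E binds the cap of the message, the scaffold eIF4G and the helicase eIF4A join it, and the eIF4E-binding proteins compete with eIF4G for the same surface of eIF4E. The kinase complex mTORC1 releases that block by phosphorylating the binding proteins.

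Short coding stretches show the places in these transcripts on which both controls act. They are printed 5′ to 3′ on the coding strand, from GENCODE M21 transcripts. In the alpha subunit gene Eif2s1, on chromosome 12, the capitals mark the codon of the serine that the eIF2 kinases phosphorylate, in coding bases 133 to 177.
Eif2s1: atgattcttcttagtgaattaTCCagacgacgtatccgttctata
In the binding protein genes Eif4ebp1 (chromosome 8) and Eif4ebp2 (chromosome 10) and in the scaffold gene Eif4g1 (chromosome 16), the capitals mark the 6 codons at the core of the motif that binds eIF4E.
Eif4ebp1: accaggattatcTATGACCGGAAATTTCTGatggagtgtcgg
Eif4ebp2: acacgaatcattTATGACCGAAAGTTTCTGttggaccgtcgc
Eif4g1: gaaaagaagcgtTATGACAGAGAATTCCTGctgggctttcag
Over these 18 bases Eif4ebp1 and Eif4ebp2 shared 16, and each shared 14 with Eif4g1. Of these 4 genes Eif4ebp1 rose and Eif2s1 fell in the Sox7-null libraries, as given below.

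Reads assigned to genes numbered 13139823 and 13618338 in the Sox7-null libraries and 13789388 in the wild type. Reads that did not align uniquely made up 10.4% and 11.6% of the null files and 22.3% of the wild-type file. Sox7 had 2 and 7 reads in the null libraries, against 222 in the wild type. The extraction protocol names retinal organoids and the tissue label the heart tube. The summed level of 7 myocardial markers was 28190.5 and 27213 CPM (counts scaled to TMM-normalised library size) in the null libraries, against 21354 in the wild type, while 6 retinal markers together reached at most 0.445. Liver and foregut endoderm markers summed to 2.00 and 1.45 in the null libraries, against 44.9 in the wild type, and platelet markers to 219 and 125, against 32.7. Erythroid markers summed to 4509 and 14322, against 13880, so Sox7-null 1 stood apart there. The myocardial markers did not all follow their sum. Tnni1 had 1345 and 1462 CPM, against 1744, and Myl7 5098 and 6045, against 6679. Endothelial and endocardial markers summed to 383 and 388, against 408. Among these, both null libraries lay above the wild type for Pecam1 and Cdh5 and below it for Tek, Kdr and Npr3. For Nfatc1 they lay on both sides. The part that these differences in cell makeup play in the results was not tested, and fewer cells of a type and less RNA per cell cannot be told apart in bulk tissue.

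Of the 55 members, 5 rose and 6 fell in the Sox7-null heart tubes (edgeR quasi-likelihood test, adjusted p under 0.05 over all genes). The members called were 20.0%, against 21.6% of all 13334 genes tested, so the share was near the background. Among all genes 11.3% were higher and 10.2% lower. The 5 that rose were the RNA helicase Eif4a2, its cofactor Eif4b, the inhibitor Eif4ebp1, the eIF3 subunit Eif3c and the Argonaute gene Eif2c2. The 6 that fell were Eif5a, Eif1ax, Eif2s1, Eif2s2, the scaffold relative Eif4g2 and the eIF3 subunit Eif3e. The median log2 fold change of the members was -0.11, against 0.014 for all tested genes, and their range was -0.68 to 1.05. One member, Eif4a2, differed by at least 2-fold, as did 16.5% of all tested genes. The members together took 1.46% and 1.49% of gene reads in null tubes, against 1.59% in wild-type tubes. A trend of the fold changes on transcript length and GC content was fitted and removed, which is called correction here. This shifted the log2 fold changes of members by -0.50 to 0.48. Whether the trend is technical was not tested. After correction for transcript length and GC 9 members passed, 4 higher and 5 lower, or 16.4% against 17.4% of all genes. Of these 9, 8 were among the 11. With DESeq2, 8 of the 11 and no other member passed. That is 14.5% of the 55 members, against 13.8% of the genes to which it gave an adjusted p. It gave no adjusted p to the member Eif2c4.

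**Figure D1:**
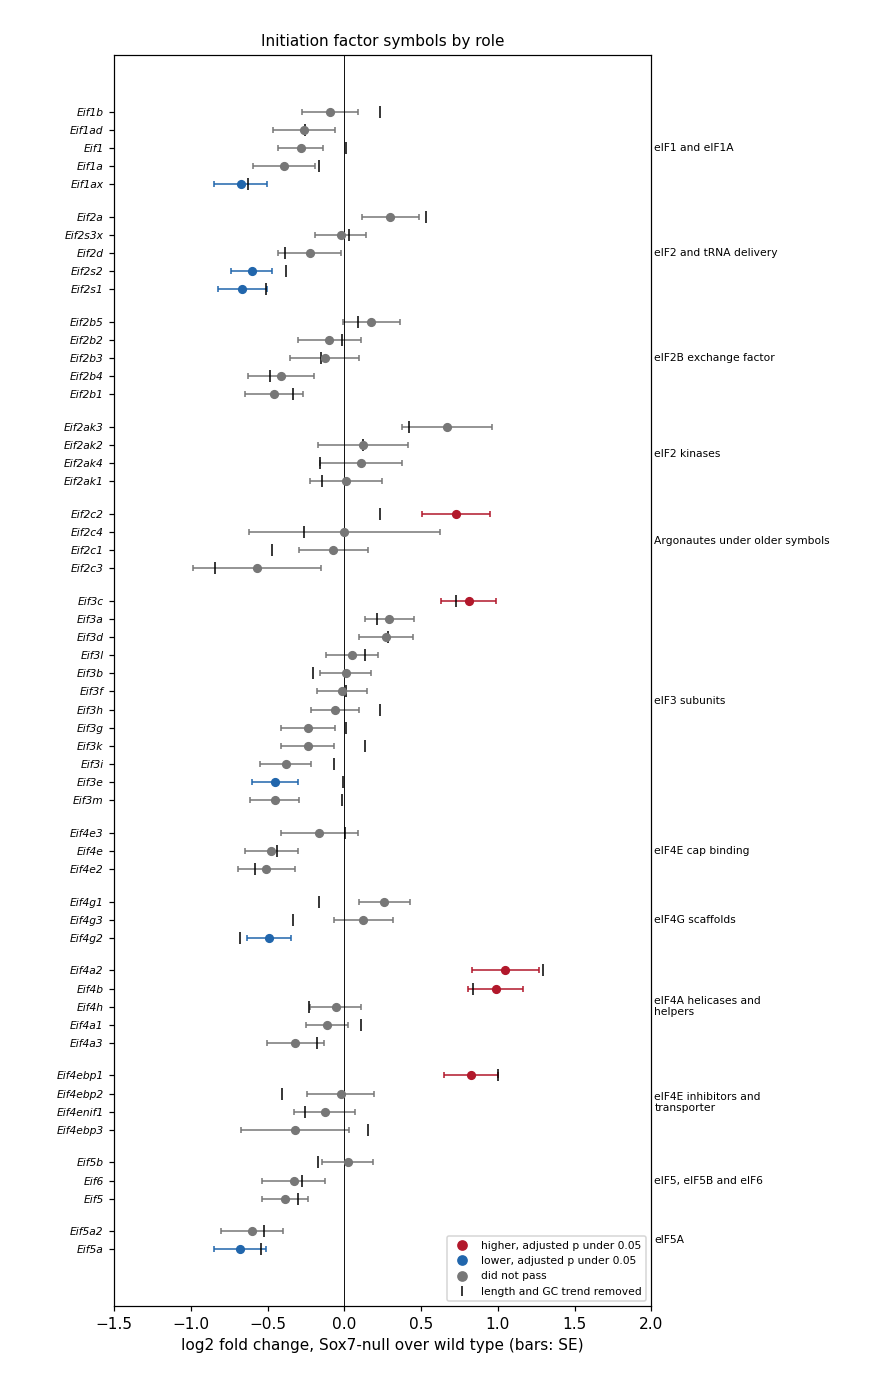
The plot shows the log2 fold change of each of the 55 members, Sox7-null over wild type, with its standard error as a bar, grouped by role. Red and blue points passed the test in the higher and lower direction, grey points did not, and black ticks give the value after correction for transcript length and GC, which for Eif3e is -0.01 against -0.45.

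Both null libraries lay on the same side of the wild type for 45 members, 13 above it and 32 below it. That is 81.8%, against 86.1% of all tested genes, of which 43.1% lay above and 43% below. Both null libraries are compared with the same wild-type library, so such a share carries no test.

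**Figure D2:**
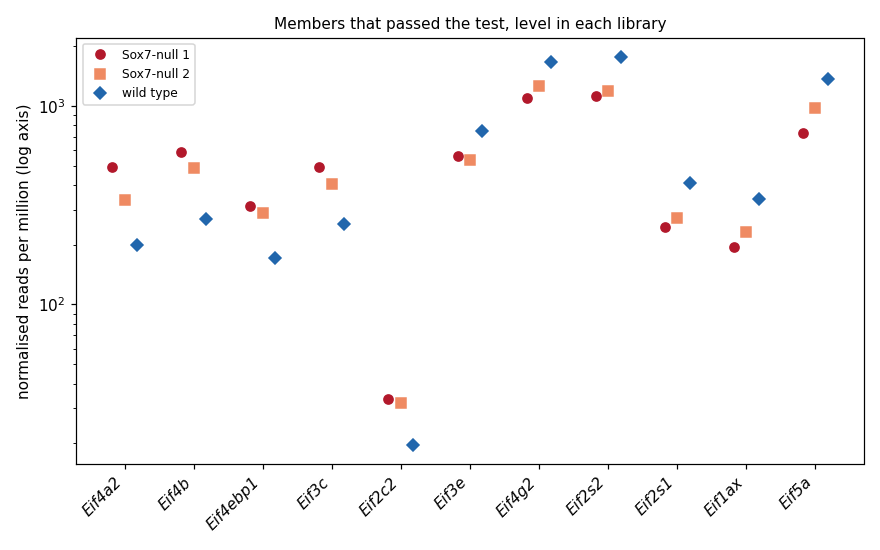
The plot shows the level of the 11 members that passed, in CPM on a log axis, for both null libraries and the wild-type library. In the 5 genes on the left both null libraries lie above the wild type, and in the 6 on the right both lie below it.

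Of the 3 subunits of eIF2 itself, 2 fell and the gamma subunit did not pass. Eif2s1, the alpha subunit that the kinases phosphorylate, had 245 and 273 CPM in the null libraries, against 411 in the wild type. Both null libraries lay below the wild type, and the log2 fold change was -0.67 ± 0.16 (SE; edgeR adjusted p = 0.0127). After correction for transcript length and GC it stood at -0.51 (adjusted p = 0.0491). Eif2s2, the beta subunit, had 1125 and 1187 CPM, against 1759 in the wild type. It fell as well, at -0.61 ± 0.13 (edgeR adjusted p = 0.00803), but no longer passed after correction for transcript length and GC (-0.38, adjusted p = 0.136). The gamma subunit gene on the X chromosome, Eif2s3x, had 345 and 307 CPM, against 332 in the wild type, and the null libraries lay on both sides of it (-0.02 ± 0.17, edgeR adjusted p = 0.936). Per kilobase of transcript, the beta subunit stood at 443 and 467 CPM per kb in null tubes, against 692 in wild-type tubes. This was the highest level of the 3 subunits in each library, since the alpha subunit stood at 72.0 and 80.1 against 121 and the gamma subunit at 94.7 and 84.2 against 91.0. A stretch of Eif2s2 that makes up 39.0% of its transcript occurs nearly identically in the gene Gm9892, and 37.0% of Eif2s3x in Gm2223, so their counts are uncertain. Eif2a and Eif2d, which can deliver initiator tRNA without eIF2, had values of 0.30 ± 0.19 and -0.23 ± 0.20 and did not pass (edgeR adjusted p = 0.277 and 0.460).

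None of the 5 subunits of eIF2B, the exchange factor of eIF2, passed the test with edgeR, limma-voom or DESeq2, and 1 had an unadjusted edgeR p under 0.05. That was Eif2b1, the alpha subunit through which eIF2B senses phosphorylated eIF2. Its level was 62.2 and 64.4 CPM, against 86.9 in the wild type (-0.46 ± 0.19, edgeR adjusted p = 0.104). The values of Eif2b2, Eif2b3 and Eif2b4 were -0.10, -0.13 and -0.41. Eif2b5, the catalytic subunit, had 108 and 109.6 CPM, against 96.5 (0.17 ± 0.19). Summed over the 5 genes the level was 257 and 273 CPM in the null libraries, against 291 in the wild type. An unadjusted edgeR p under 0.05 was found in 19 of all 55 members. Among all tested genes the share was at least the 21.6% that passed after adjustment. This is the background for such counts in each group and list.

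The 4 eIF2 kinases respond to different stresses, and none passed the test with edgeR, limma-voom or DESeq2. Eif2ak3 encodes PERK, the kinase of the endoplasmic reticulum. It had 173 and 157 reads in the null libraries, against 101 in the wild type, or 12.8 and 11.4 CPM against 7.62. Both null libraries lay above the wild type (0.67 ± 0.29, edgeR adjusted p = 0.121), and this was the kinase with an unadjusted p under 0.05. The value was 0.42 after correction for transcript length and GC. Eif2ak4 encodes GCN2, which senses uncharged tRNA, and had 184 and 166 reads, against 158 (0.11 ± 0.27, edgeR adjusted p = 0.814). Eif2ak2 encodes PKR, which binds double-stranded RNA, and had 14.0 and 10.1 CPM, against 11.1 (0.12 ± 0.29). Eif2ak1 encodes HRI, the kinase that haem restrains and that red cells make in quantity. It had 29.4 and 39.8 CPM, against 34.3 (0.01 ± 0.23), so the null libraries lay on both sides of the wild type. The part of red cells in this level was not tested. Eif2ak1 was the kinase with the most reads per kilobase in each library, with 6.79 and 9.19 against 7.93. The other 3 lay between 1.69 and 3.25. Exons of other genes on the opposite strand overlap Eif2ak1 over 659 bases, Eif2ak3 over 485 and Eif2ak2 over 174, so these counts are uncertain. At these depths the standard errors of the 4 kinases were 0.23 to 0.29 on the log2 scale, and the 0.67 of Eif2ak3 did not pass, so differences up to at least that size were not detectable for it.

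Genes that act on the kinases or downstream of them were read from lists of other translation genes. Atf4 rose, with 386 and 255 CPM in the null libraries, against 69.8 in the wild type (2.20 ± 0.25, edgeR adjusted p = 0.000242). Its partner in stress, Ddit3, had 64.7 and 29.3, against 4.60 (3.35 ± 0.44, edgeR adjusted p = 0.000540). Trib3, a pseudokinase gene downstream of Atf4, had 108 and 63.1 CPM, against 4.98 (4.10 ± 0.36, edgeR adjusted p = 4.78e-05). Cebpb, which encodes a leucine zipper factor that pairs with Atf4, had 32.6 and 19.4, against 4.90 (2.40 ± 0.35). In these 4 genes both null libraries lay above the wild type, and Sox7-null 1 was the higher. Cebpg, of the same list, had 79.6 and 65.0 CPM, against 48.2, and did not pass (0.59 ± 0.21, edgeR adjusted p = 0.0678). The phosphatase that reverses eIF2 phosphorylation pairs a targeting subunit with a catalytic subunit. The inducible targeting subunit Ppp1r15a rose, with 29.7 and 18.1 CPM, against 9.58 (1.32 ± 0.31, edgeR adjusted p = 0.0107), while the constitutive Ppp1r15b had a value of 0.27 and did not pass. The catalytic genes Ppp1ca and Ppp1cc fell, at -0.58 ± 0.16 and -0.49 ± 0.16, but passed neither with DESeq2 nor after correction for transcript length and GC. Of the 10 genes of this list 5 rose and 2 fell, with a median of 0.95, against 0.014 for all genes. Among all genes 11.3% were higher and 10.2% lower. The list was chosen with earlier results of these data known, so its counts and median carry no test. Of 9 regulators of the kinases 1 rose and 0 fell, with a median of -0.24. This was the chaperone gene Hsp90b1 of the endoplasmic reticulum (0.52 ± 0.14, edgeR adjusted p = 0.0223; adjusted p = 0.0520 with DESeq2). Dnajc3, an inhibitor of PERK and PKR, had a value of -0.59 ± 0.20 (edgeR adjusted p = 0.0547), and passed after correction for transcript length and GC (-0.63, adjusted p = 0.0347). The gene that the files list as 0610009O20Rik, now Dele1, relays mitochondrial stress to HRI and had a value of 0.51 ± 0.21 (edgeR adjusted p = 0.0969).

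**Figure D3:**
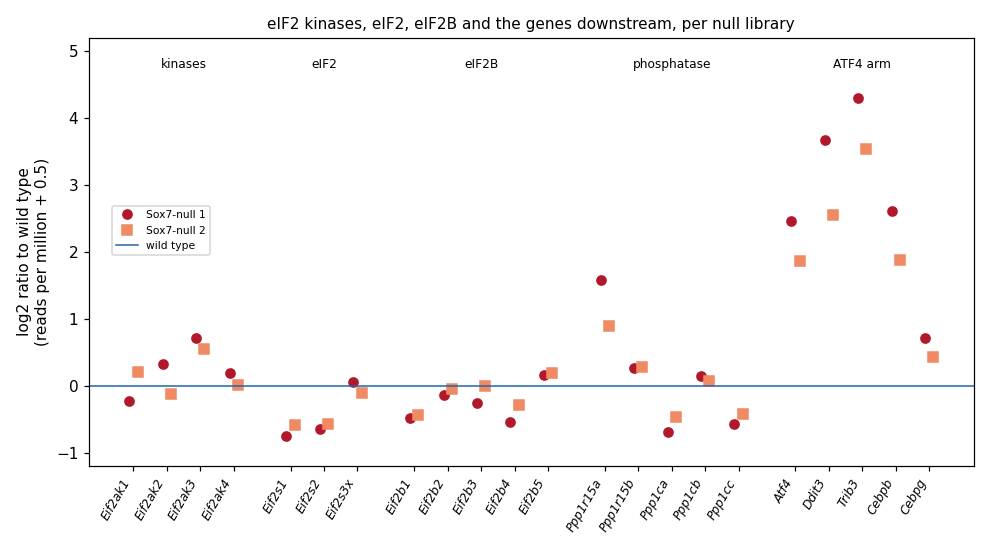
The plot shows the log2 ratio of each null library to the wild type, from CPM with 0.5 added, for the 4 kinases, eIF2, eIF2B, the phosphatase and the Atf4 arm. The points of the kinases lie between -0.22 and 0.72. In the Atf4 arm the lowest point of Atf4, Ddit3, Trib3 and Cebpb is 1.86. The points of Cebpg, also in that arm, are 0.72 and 0.43, within the range of the kinases.

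Among the eIF4E-binding proteins the gene Eif4ebp1 rose and the others did not pass. Eif4ebp1 had 4236 and 3997 reads in the null libraries, against 2260 in the wild type, or 314 and 290.0 CPM against 170.4. Both null libraries lay above the wild type, close to each other. The log2 fold change, 0.83 ± 0.17 (edgeR adjusted p = 0.00623), became 1.00 after correction for transcript length and GC. Its relative Eif4ebp2, which shares the binding motif printed above, had 23.1 and 25.5 CPM, against 24.7 (-0.03 ± 0.22, edgeR adjusted p = 0.949). Eif4ebp3 had 6.31 and 4.79, against 6.94 (-0.32 ± 0.35), and 67.7% of its transcript is nearly identical to AC115631.1, a gene that overlaps it, so its count is uncertain. Eif4enif1, whose product carries eIF4E into the nucleus, had 53.2 and 59.3, against 61.5 (-0.13 ± 0.20). Per kilobase, Eif4ebp1 had 157 and 145 CPM, against 85.3, and Eif4ebp2 at most 4.40 in any library. The transcript of Eif4ebp1 was thus the more abundant of the 2 in each library.

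None of the cap-binding genes passed with edgeR, limma-voom or DESeq2, and 2 of 3 had an unadjusted edgeR p under 0.05. Such a p was found in 19 of all 55 members and in at least 21.6% of all tested genes. Eif4e, the target of the binding proteins, had 189.5 and 223 CPM in the null libraries, against 287 in the wild type. Both null libraries lay below it (-0.48 ± 0.17, edgeR adjusted p = 0.0694). Eif4e2, a relative that binds the cap but not eIF4G and represses translation, had 103 and 122, against 160.0 (-0.51 ± 0.19, edgeR adjusted p = 0.0701), and it passed after correction for transcript length and GC (-0.58, adjusted p = 0.0369). Eif4e3 had 15.7 and 13.5, against 16.4 (-0.16 ± 0.25). Per kilobase, Eif4e had 38.0 and 44.6 CPM in null tubes, against 57.5 in wild-type tubes, below the 157, 145 and 85.3 of Eif4ebp1.

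Of the scaffolds, the 2 that bind eIF4E did not pass. Eif4g1 had 271 and 291 CPM, against 235 (0.26 ± 0.17, edgeR adjusted p = 0.296), and its value was -0.16 after correction for transcript length and GC. Eif4g3 had 84.3 and 87.1, against 78.7 (0.12 ± 0.19), and -0.34 after that correction. Eif4g2, also called DAP5, lacks the site for eIF4E and serves initiation without the cap-binding factor. It had 1099 and 1256 CPM in the null libraries, against 1657 in the wild type, and fell, at -0.49 ± 0.14 (edgeR adjusted p = 0.0269). It fell further after that correction (-0.68, adjusted p = 0.0117) and did not pass with DESeq2 (adjusted p = 0.0965).

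Of the eIF4A helicases, which unwind the leader of the message, Eif4a2 rose and Eif4a1 did not pass. The difference between them was not tested. Eif4a2 had 6599 and 4617 reads in the null libraries, against 2642 in the wild type, or 489.5 and 335 CPM against 199. The log2 fold change was 1.05 ± 0.22 (edgeR adjusted p = 0.00562), with 1.30 when Sox7-null 2 was left out and 0.75 when Sox7-null 1 was. Its near relative Eif4a1 had 1465 and 1622 CPM, against 1669 (-0.11 ± 0.14, edgeR adjusted p = 0.598). Per kilobase, Eif4a1 stood at 826 and 914 CPM in null tubes, against 941 in wild-type tubes, and Eif4a2 at 181 and 124, against 73.6. Eif4a1 thus remained the more abundant in each library. A stretch of 68.7% of the Eif4a1 transcript occurs nearly identically in the pseudogene Eif4a-ps4, so the count of Eif4a1 is uncertain. Eif4a3, the helicase at the core of the exon junction complex, had a value of -0.32 ± 0.18. Eif4b, which stimulates the helicase and is a target of the mTORC1 pathway, had 589 and 484 CPM, against 271, and rose by 0.99 ± 0.18 (edgeR adjusted p = 0.00275). Eif4h, a shorter relative of Eif4b, had 326 and 365, against 359.6 (-0.06 ± 0.16).

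The factor eIF3 holds the small ribosomal subunit ready and recruits the message. Of its 12 subunits among the members, which do not include Eif3j, 1 rose and 1 fell. Eif3c, a core subunit, had 491 and 404 CPM, against 255. Both null libraries lay above the wild type (0.81 ± 0.18, edgeR adjusted p = 0.00770), and this held after correction for transcript length and GC (0.73, adjusted p = 0.0102). Eif3e had 562 and 534 CPM, against 748. It fell, at -0.45 ± 0.15 (edgeR adjusted p = 0.0481), but its value was -0.01 after correction for transcript length and GC, and it passed neither with DESeq2 (adjusted p = 0.133) nor with limma-voom (adjusted p = 0.0547). Another subunit gene, Eif3m, stood at -0.46 (edgeR adjusted p = 0.0594) and at -0.01 after that correction. A share of 92.8% of the Eif3m transcript is nearly identical to transcripts of Ccdc73 or Gm7658, so its count, and with it the eIF3 sum, is uncertain. The other large core subunits, Eif3a and Eif3b, had values of 0.29 ± 0.16 and 0.01 ± 0.17. The summed level of the 12 genes was 3941 and 3819 CPM in the null libraries, against 3997 in the wild type. Per kilobase the subunits spanned a range in each library, and Eif3e and Eif3h were the most abundant, at 354 or more and 324 or more. Eif3c was the least abundant in the wild type, at 75.5, and stood at 145 and 119 in the null libraries, above Eif3a at 110.4 and 100.4 and Eif3b at 87.7 and 93.4.

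**Figure D4:**
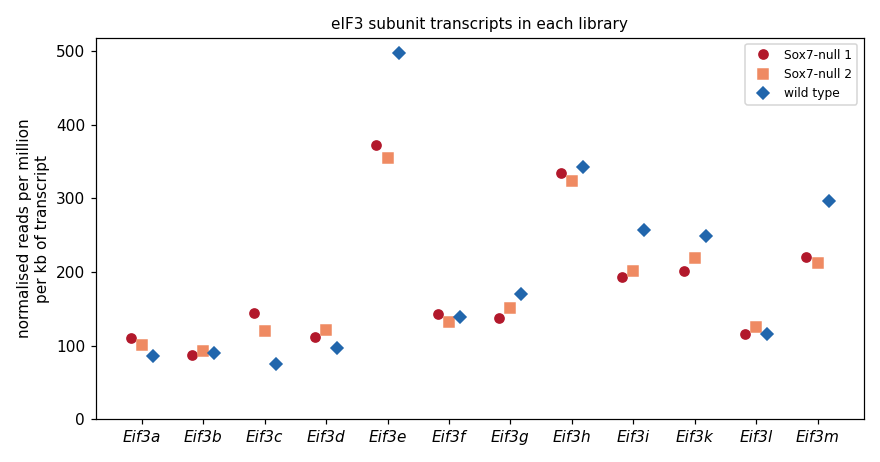
The plot shows the level of the 12 eIF3 subunit transcripts, in CPM per kilobase of the longest coding transcript, for both null libraries and the wild-type library. Eif3c has both null libraries above the wild type at 75.5, and Eif3e has both below the wild type at 497.

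Of the 5 genes grouped by symbol with eIF1 and eIF1A, the factors that set the start codon, 0 rose and 1 fell. Eif1ad, placed in this group by its symbol, stood at -0.26 ± 0.20. Eif1ax, the X-linked gene of eIF1A, had 195 and 231 CPM in the null libraries, against 340.1 in the wild type, and fell, at -0.68 ± 0.17 (edgeR adjusted p = 0.0154). Its autosomal copy Eif1a stood at -0.39 ± 0.20. Eif1, which guards the start codon during scanning, had 687 and 649 CPM, against 814 (-0.29 ± 0.15), and Eif1b had the value nearest to 0 of this group, at -0.10 ± 0.18. In all 5 genes of the group both null libraries lay below the wild type, as they did in 43% of all tested genes. After correction for transcript length and GC the value of Eif1 was 0.01 and that of Eif1b 0.23, a change of sign for both. Eif5, the GTPase activator of eIF2, had 523 and 546 CPM, against 698 (-0.39 ± 0.15, edgeR adjusted p = 0.0843). Eif5b, which joins the large ribosomal subunit, had 294 and 329, against 307 (0.02 ± 0.17), and Eif6, which keeps the subunits apart, stood at -0.33 ± 0.21. None of these 3 passed with edgeR, limma-voom or DESeq2, and 1 of them had an unadjusted edgeR p under 0.05.

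The eIF5A genes, whose products help elongation and termination and carry the modified amino acid hypusine, had 1 of 2 that fell. Eif5a had 726 and 976 CPM, against 1365 in the wild type, and fell, at -0.68 ± 0.17 (edgeR adjusted p = 0.0142). The null libraries differed, with values of -0.91 without Sox7-null 2 and -0.48 without Sox7-null 1. Eif5a2 had 28.8 and 30.0, against 44.6 (-0.60 ± 0.20, edgeR adjusted p = 0.0522). Dhps and Dohh, the enzymes that make hypusine, did not pass, at -0.22 and -0.56 (edgeR adjusted p = 0.508 and 0.0711). Dohh passed after correction for transcript length and GC (-0.58, adjusted p = 0.04995).

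Promoter windows were available for 44 of the 55 members in RefSeq (GRCm38.p6). They were searched in the 250 bases before the annotated start for 3 motifs. Members without a window, Eif4ebp1 among them, were not searched. CACGTG, the E-box read alike on both strands, was present in 9 of the 44 (20.5%), against 1854 of 27025 genes (6.86%). The 9 were Eif1b, Eif3f, Eif3k, Eif4a1, Eif4e, Eif4g1, Eif4h, Eif5a and Eif5a2, of which Eif5a had passed the test. CCAAT or its reverse was present in 15 of the 44 (34.1%), against 37.5% of genes. The element TGATGNAA, searched on both strands as a form bound by Atf4 with C/EBP partners, was present in 1 (2.27%), which was Eif2s3x, against 3.91% of genes. The members had reads in these libraries, while the 27025 genes were taken whether or not they had reads. These shares thus come from unlike sets of genes. Genes differ in their number of annotated starts. Counted per window, CACGTG was present in 11 of 58 member windows (19.0%), against 1978 of 32851 windows (6.02%). A single window with the motif is shown for each of Eif4e (of 2 windows), Eif5a (of 6) and Eif5a2 (of 1), with CACGTG in capitals. Other windows of Eif4e and Eif5a may hold it too. The E-boxes in the window of Eif4e are 228 and 64 bases before the start. The windows lie at chr3:138527018-138527267 on the plus strand, chr11:69921387-69921636 on the minus strand and chr3:28781027-28781276 on the plus strand.
Eif4e: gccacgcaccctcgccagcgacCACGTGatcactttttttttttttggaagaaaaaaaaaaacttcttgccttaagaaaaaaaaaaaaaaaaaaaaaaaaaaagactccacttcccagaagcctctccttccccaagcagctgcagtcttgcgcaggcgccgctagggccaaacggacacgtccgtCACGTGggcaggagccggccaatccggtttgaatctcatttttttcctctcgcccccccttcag
Eif5a: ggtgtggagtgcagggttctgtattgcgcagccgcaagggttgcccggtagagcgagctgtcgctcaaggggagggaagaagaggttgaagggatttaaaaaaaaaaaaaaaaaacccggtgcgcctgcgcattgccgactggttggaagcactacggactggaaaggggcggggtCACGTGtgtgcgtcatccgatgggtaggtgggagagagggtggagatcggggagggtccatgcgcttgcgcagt
Eif5a2: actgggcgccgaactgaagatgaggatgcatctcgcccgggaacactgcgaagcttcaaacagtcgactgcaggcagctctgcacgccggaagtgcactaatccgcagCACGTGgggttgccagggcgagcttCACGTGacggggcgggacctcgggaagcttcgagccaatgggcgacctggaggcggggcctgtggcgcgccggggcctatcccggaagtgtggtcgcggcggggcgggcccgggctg
A match describes these letters and not a bound site.

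The Argonaute genes, which load small RNAs, had 1 of 4 that rose. Eif2c2, now Ago2, had 33.5 and 31.8 CPM in the null libraries, against 19.7 (0.73 ± 0.22, edgeR adjusted p = 0.0335). It did not pass after correction for transcript length and GC (0.23, adjusted p = 0.496) or with DESeq2. Eif2c1 and Eif2c3 had values of -0.07 and -0.57, and Eif2c4 had 23 and 16 reads, against 19.

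Of the 95 translation genes outside the members that the lists held, 11 rose and 11 fell, with a median of -0.06. That is 23.2%, against 21.6% of all genes. Among all genes 11.3% were higher and 10.2% lower, which is the background for the counts of each list. Of 20 genes of mTORC1 and its regulators 2 rose and 0 fell (median -0.13). These were the inhibitors Ddit4, with 205 and 143 CPM against 20.7, and Sesn2, with 27.2 and 20.8 against 3.32. The other sestrin genes, Sesn1 and Sesn3, stood at -0.31 and -0.57 and did not pass. The kinase gene Mtor stood at -0.04, and at -0.60 after correction for transcript length and GC (adjusted p = 0.0470), and the activator Rheb stood at -0.50 ± 0.17 (edgeR adjusted p = 0.0506). Gatsl2, now Castor2, which belongs to a family of mTORC1 inhibitors, stood at -0.76 ± 0.30 (edgeR adjusted p = 0.0878), and at -1.24 after the same correction (adjusted p = 0.00781). Among 12 other initiation, scanning and recycling factors 0 rose and 4 fell, with a median of -0.43. Denr, which promotes reinitiation, had 74.8 and 95.1 CPM, against 166 (-0.97 ± 0.20, edgeR adjusted p = 0.00494). Bzw1, a mimic of eIF5, had 321 and 424, against 647 (-0.80 ± 0.18), and the recycling ATPase gene Abce1 and Bzw2 stood at -0.58 and -0.55. Neither Abce1 nor Bzw2 passed with DESeq2 or after correction for transcript length and GC. The helicase gene Dhx29 stood at -0.56 (edgeR adjusted p = 0.0984) and passed after the correction (-0.75, adjusted p = 0.0270).

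Of 14 elongation and termination factors 2 rose and 2 fell (median -0.23). Eef2, the translocase, had 3671 and 3237 CPM in the null libraries, against 1861 in the wild type (0.89 ± 0.14, edgeR adjusted p = 0.00114). Eef2k, the kinase that inhibits it, rose too, with 30.9 and 23.1, against 10.6 (1.35 ± 0.27). Eef1a2, the form of elongation factor 1A found in muscle and neurons, had 4.01 and 5.81, against 17.9 (-1.86 ± 0.31), and Eef1b2 fell, at -0.60, but not after correction for transcript length and GC. Of 6 poly(A) binding proteins and partners 0 rose and 1 fell (median -0.14). This was the nuclear protein gene Pabpn1 (-0.88 ± 0.20, edgeR adjusted p = 0.00818), while the cytoplasmic Pabpc1 had 1615 and 1534 CPM, against 1210.2 (0.38 ± 0.14, edgeR adjusted p = 0.0682) and Paip1 stood at -0.44. Of 10 eIF4E kinases and cap partners 1 rose and 1 fell (median 0.22). Ncbp1, the partner of Ncbp2, stood at -0.59 (edgeR adjusted p = 0.0544) and passed after correction for transcript length and GC (-0.59, adjusted p = 0.0438). Gigyf1, a partner of eIF4E2, stood at 1.08 ± 0.33, and the nuclear cap-binding gene Ncbp2 at -0.75 ± 0.22, and neither passed with DESeq2 or after that correction. Of 5 genes of the exon junction complex around Eif4a3, Magoh fell, at -0.95 ± 0.19, but had a value of -0.27 after that correction (median -0.48). Magohb and Rbm8a stood at -0.57 and -0.48 and did not pass. None of 9 mitochondrial initiation and elongation factors passed with edgeR, limma-voom or DESeq2, and 1 had an unadjusted edgeR p under 0.05. That was Tsfm, at -0.56 ± 0.21, and the list median was 0.07. Gfm2 and Tufm stood at 0.34 and 0.22.

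A stretch of at least 75 bases with at least 98% identity to a transcript of another gene, either a copy or an overlapping gene, was found in 20 members. Of these 20, 4 had passed the test, namely Eif2s2, Eif4a2, Eif5a and Eif2c2, against 7 of the 35 without such a stretch. Overlap with exons of another gene on the opposite strand was found in 14 members and on the same strand in 2. The strand setting of the counting is not given in the sources used here, so reads of such partners cannot be told apart.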

How the data were processed

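Each deposited file lists gene symbols of 1 library with raw counts, whole numbers that the authors did not normalise. Per the labels' protocols, Trizol RNA went into a stranded total RNA kit. The submitters' processing notes name CASAVA, TopHat2, HTSeq and DESeq2 1.10.1, and human builds although the symbols are those of mouse, so no coordinate is taken from the files. The 5 summary lines per file, which hold reads without a feature (8.10%, 8.52% and 11.7%), ambiguous reads and reads not uniquely aligned, were left out.

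Counts were tested with edgeR 4.0.16 (R 4.3.3): TMM factors 1.03, 1.01 and 0.962, filterByExpr with a minimum count of 10 (13334 of 23337 genes kept), glmQLFit and glmQLFTest on genotype, and Benjamini-Hochberg adjustment over all genes tested, at a threshold of 0.05. The fit had 1 residual and 11.8 prior degrees of freedom and a biological coefficient of variation of 15.0%. The standard error is the log2 fold change divided by the square root of F. The code was tested on simulated data. Alternatives were DESeq2 1.42.0, limma-voom 3.58.1, other scalings and filters, each null library left out, and a loess trend on transcript length and GC (99.0% of tested genes) removed through offsets. Levels are CPM scaled by TMM, and CPM per kilobase of the longest coding GENCODE M21 transcript. Near-identical stretches were found with blastn 2.17.0.

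The members, lists and tests were chosen with earlier results of these data known. Named are all genes of the eIF2, eIF2B, kinase, cap-binding, scaffold and inhibitor groups, in other groups those past the threshold and the one nearest to 0, up to 3 genes per list by p, and Sox7, Atf4, Ddit3, Ppp1r15a, Trib3, Ddit4 and Sesn2. Further members and list genes named with values were chosen after their values were seen.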

Additional observations from a re-analysis of the deposited data

How the results depend on the processing

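Without a filter on low counts, edgeR tested 17242 genes with 3.23 prior degrees of freedom, and 0 genes, 0 members and 0 of the listed translation genes passed. The smallest adjusted p was then 0.122, while 4113 genes, 19 members and 36 listed genes had an unadjusted p under 0.05, and limma-voom with the filter called 10 members and DESeq2 8. DESeq2 called 1637 genes, against 2874 with edgeR. The remaining alternatives gave between 8 and 12 members. Eif5a2 passed with RLE scaling (adjusted p = 0.0468) and Eif4e2 after correction for transcript length and GC. Eif3e did not pass with library size as the only scaling (adjusted p = 0.0838) or at a minimum mean of 5 CPM (adjusted p = 0.0524). With library size alone, the log2 ratios of summed levels, null mean over wild type, were -0.28 for the eIF1 and eIF1A group, -0.38 for eIF2 and tRNA delivery, -0.054 for eIF2B, 0.22 for the kinases, 0.37 for the Argonautes, 0.041 for eIF3, 0.23 for eIF4A and its helpers, 0.64 for the eIF4E inhibitors and -0.17 for eIF5, eIF5B and eIF6. With TMM they were -0.36, -0.47, -0.14, 0.14, 0.29, -0.04, 0.15, 0.56 and -0.26, so the eIF3 sum changed sign. The cause of these shifts was not tested. Leaving out either null library leaves 1 against 1 and no test, and no called member or listed gene named here then changed sign. An exact permutation of 2 against 1 libraries cannot give a p below 0.333. No paired analysis was possible, since there was 1 wild-type library and the labels give no pairing.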

Other observations

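Eif2s3y, the Y-linked copy of the gamma subunit gene of eIF2, was not among the members. It had 220 and 575 reads in the Sox7-null libraries, against 252 in the wild type (edgeR adjusted p = 0.302), while the X-linked Eif2s3x had 4657 and 4232, against 4402. The null libraries lay on both sides of the wild type for each gene.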
